A study of Mus musculus with 2 samples.

Results

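The genes described here encode the subunits of the mitochondrial respiratory chain and of ATP synthase. They were chosen by symbol: names starting with Ndufa, Ndufb, Ndufc, Ndufs, Ndufv, Uqcr, Cox4 to Cox8 or Atp5, and the mitochondrially encoded mt-Nd, mt-Co, mt-Cytb and mt-Atp genes, with at least 50 unique molecular identifiers (UMIs, each counting 1 captured RNA molecule) over both libraries. Of 32245 gene symbols, 102 matched and 97 reached the minimum, 84 of them nuclear and 13 mitochondrially encoded. The 5 that did not were Cox4i2, Cox7b2, Cox8b, Cox8c and Ndufa4l2, at 39 UMIs or fewer each. The nuclear genes comprise 37 of complex I, 8 complex I assembly factors (Ndufaf1 to Ndufaf8, which share the prefix), 8 of complex III, 14 of complex IV and 17 of ATP synthase. The mitochondrial genome contributes 7, 1, 3 and 2 genes to complexes I, III, IV and V.

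Complex I takes electrons from NADH, complex III passes them to cytochrome c, and complex IV hands them to oxygen. The proton gradient that these steps build drives ATP synthase, also called complex V. Most subunits are made from nuclear genes and imported, while a small core is transcribed inside the organelle as long polycistronic RNAs that are then cut into shorter transcripts. Lymphocytes and macrophages are known to shift between oxidative phosphorylation and glycolysis as they become activated.

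Both libraries were made from immune cells of mouse subcutaneous KP allograft tumours taken on day 14, dissociated, enriched on Percoll and sorted as live CD45+ cells. The library with the genotype label WT is called Tdg_WT here and the library with the label Tdg KO is called Tdg_KO. There is 1 library of each, so no test between genotypes is possible, and a difference between genotypes cannot be told apart from a difference between 2 preparations. The labels do not say whether the tumour cells, the host or both carry the genotype, nor how many animals were pooled, and the names KP and KPT in the titles are not spelled out.

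Tdg, the thymine DNA glycosylase gene, had 993 UMIs in the kept cells of Tdg_WT and 1385 in those of Tdg_KO, or 25.1 and 26.5 CPM (UMIs per 1000000 UMIs of the cells summed), a ratio of 1.06 (0.974 to 1.15). Each UMI marks the 3′ end of a transcript and does not check a deletion elsewhere in the gene, so every direction below is that of the library labelled Tdg_KO. Ratios are Tdg_KO over Tdg_WT throughout, and the range after each is an exact conditional Poisson 95% interval, which covers counting error only. The libraries held 39819010 and 52586319 UMIs, of which 5504 and 5693 cells were kept, with medians of 5378 and 6419 UMIs per cell, and 8 barcodes occurred in both. Barcodes carrying at least 3 genes each of T cells and of phagocytes were 10.4% and 17% of the kept cells, and clusters rich in them were left without a name. Classes are clusters called "-like" from marker genes, built without any of the 97 genes. Comparisons of single genes cover the 9 classes that reached 100 cells in both libraries, and 7 smaller ones are described by their levels. Their defining markers were present in both libraries, with Ncr1 at 275 and 280 CPM in NK-like, Foxp3 at 401 and 382 in Treg-like, Cd79a at 1683 and 1680 in B-like and C1qa at 3285 and 4819 in macrophage-like cells. Unnamed clusters held 1007 cells in Tdg_WT and 1602 in Tdg_KO, and some were unnamed for other reasons than mixed barcodes. The largest, led by Klra1 and Ly6c2, held 301 and 374 cells, of which 15% carried genes of both T cells and phagocytes.

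Nuclear and mitochondrially encoded transcripts of the same machinery differed between the libraries in separate ways. Summed over the 13 mitochondrially encoded genes, the level was higher in Tdg_KO in all 16 named classes, by ratios from 1.20 to 1.92, with every interval above 1. Summed over the 84 nuclear genes, the interval lay below 1 in 11 classes, above 1 in 3 and across 1 in 2. These nuclear ratios ran from 0.831 in monocyte-like to 1.40 in basophil-like cells over the 16 classes. In the 9 compared classes they stayed between 0.899 and 1.10. Over all kept cells the mitochondrially encoded sum was 19497 and 25525 CPM in Tdg_WT and Tdg_KO (1.31, 1.31 to 1.31). The nuclear sum was 21382 and 20869 CPM (0.976, 0.973 to 0.979). Gene by gene, 6 of the 13 mitochondrially encoded genes were at least 25% higher over all kept cells, and 1 of the 84 nuclear genes was (Cox6a2), against 15.5% of all 13009 genes measured. Of the 471 and 892 UMIs of Cox6a2, 431 and 824 lay in the plasmacytoid dendritic-like class of 25 and 53 cells, within which its ratio was 0.797. In the other direction 1 of each was at least 20% lower, the same fold (mt-Atp8 and Cox7a1, against 6.96%). Mitochondrially encoded UMIs per nuclear UMI of these genes were thus 0.912 in Tdg_WT and 1.22 in Tdg_KO. A sum over a class is a share of the RNA captured from it, and fewer molecules per cell of other genes cannot be told apart from more molecules of these.

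**Figure D1:**
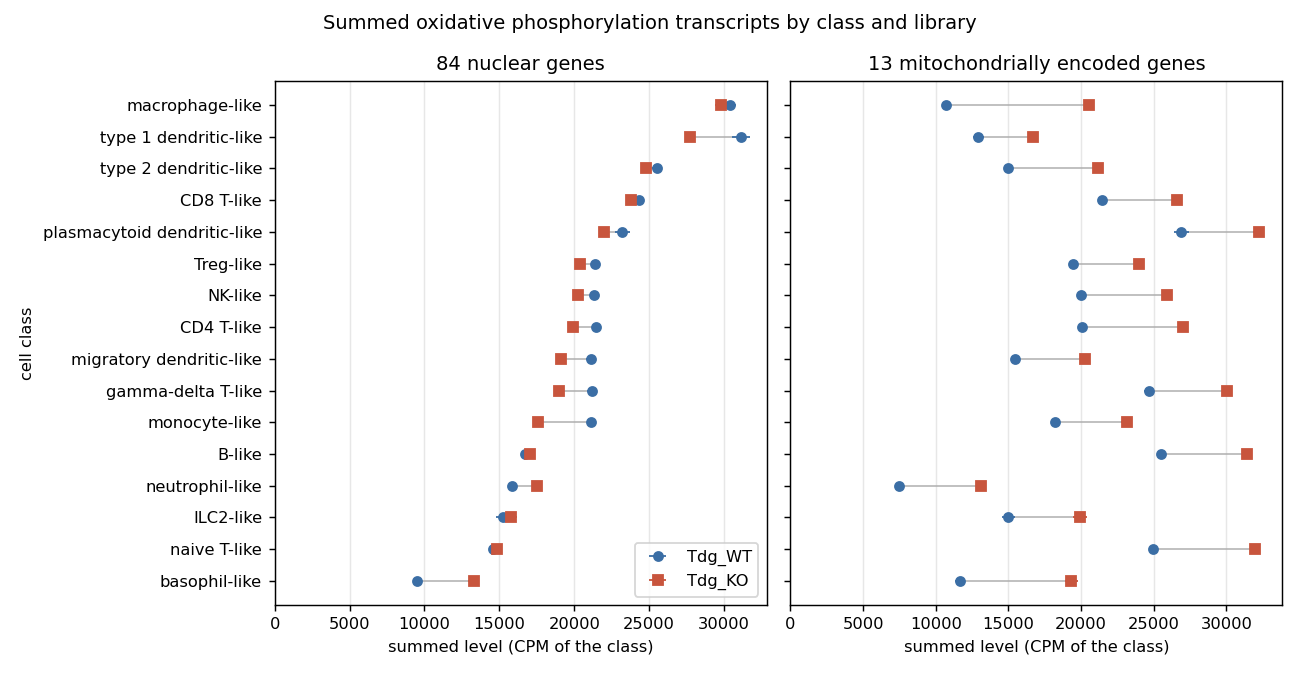
Summed level, in CPM of the class, of the 84 nuclear genes (left) and the 13 mitochondrially encoded genes (right) in each named class; circles are Tdg_WT, squares Tdg_KO, grey lines join the libraries, and bars are exact Poisson 95% intervals, mostly smaller than the symbols. Macrophage-like cells sat at 30396 and 29768 CPM for nuclear genes but at 10722 and 20543 CPM for mitochondrially encoded genes.

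The level of nuclear genes differed between classes over a wider range than between the libraries within any class. Type 1 dendritic-like cells, which cross-present antigen, had the highest nuclear sum in Tdg_WT, at 31122 CPM against 27729 in Tdg_KO (0.891, 0.871 to 0.912). Macrophage-like cells followed, at 30396 and 29768 CPM (0.979, 0.963 to 0.996), and were the highest class in Tdg_KO. Lymphocyte classes other than naive and B-like cells lay below that, with 21314 and 20278 in NK-like cells, 21474 and 19934 in CD4 T-like cells and 24336 and 23807 in CD8 T-like cells. Naive T-like cells, which have not met antigen, held less, at 14570 and 14821 CPM. Basophil-like cells were lowest, at 9512 CPM in 75 cells of Tdg_WT and 13290 in 41 cells of Tdg_KO (1.40, 1.34 to 1.46). Of the 6 markers of that class all but Cpa3 (247 and 320 CPM) were lower in Tdg_KO, with Mcpt8 at 1637 and 670 CPM, Gata2 at 783 and 412 and Cd200r3 at 416 and 209, and their part in the ratio was not tested.

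The order for mitochondrially encoded genes was different. Naive T-like and B-like cells, low in nuclear transcripts, were high here, at 24943 and 31970 CPM and at 25475 and 31414 CPM. Plasmacytoid dendritic-like cells were highest in both libraries, at 26905 and 32214 CPM, and 25.6% of their 78 barcodes carried genes of both T cells and phagocytes. Neutrophil-like cells were lowest, at 7456 and 13092 CPM, and macrophage-like cells came next in Tdg_WT, at 10722 CPM. Naive T-like cells therefore held 1.71 mitochondrially encoded UMIs per nuclear UMI in Tdg_WT, and macrophage-like cells 0.353.

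**Figure D2:**
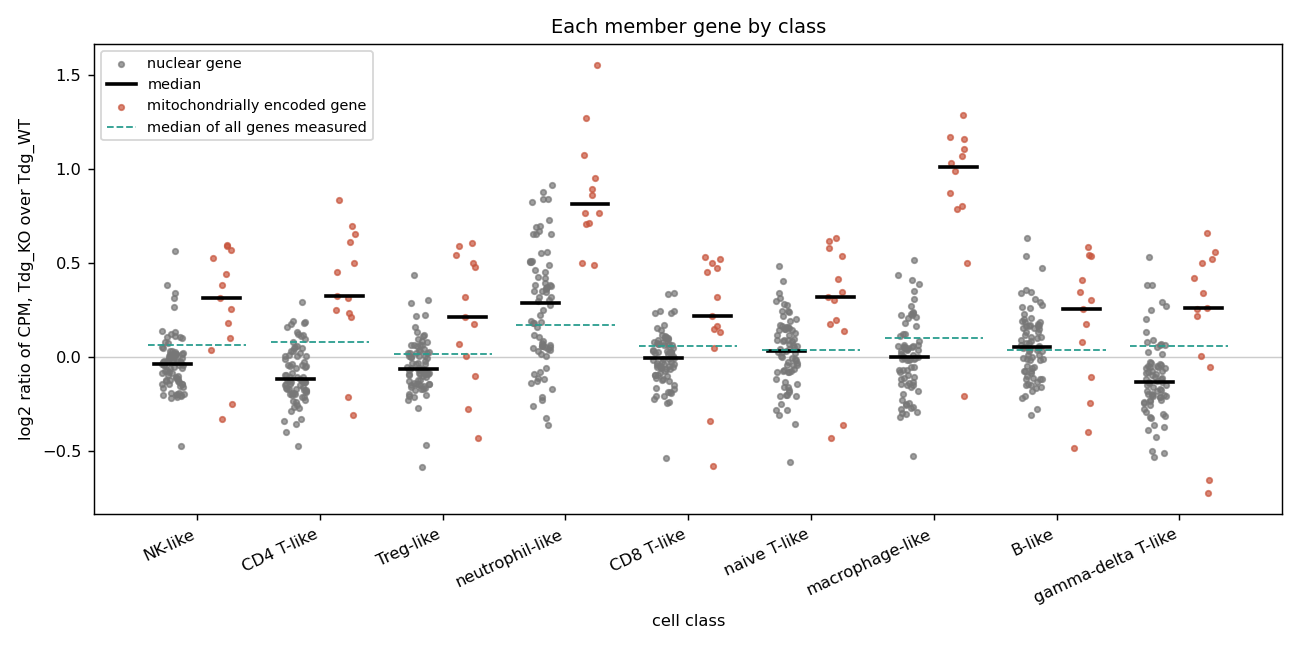
Log2 ratio of CPM (Tdg_KO over Tdg_WT) of every gene with at least 50 UMIs in the class, 1 point per gene, for the 9 compared classes; grey points are nuclear and red points mitochondrially encoded genes, black lines their medians and dashed lines the median over all genes measured. The mitochondrially encoded median lies above the nuclear one in all 9 classes, from 0.21 in Treg-like and CD8 T-like cells to 1.01 in macrophage-like cells.

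The 13 mitochondrially encoded genes did not differ evenly. The complex I genes mt-Nd1, mt-Nd2 and mt-Nd3 and the complex IV gene mt-Co3 had the highest ratios over all kept cells, while mt-Atp8 and mt-Nd4l were lower in Tdg_KO in the 7 lymphocyte classes. mt-Co3, a core subunit of cytochrome c oxidase, was at 2921 and 4416 CPM in NK-like cells (1.51, 1.48 to 1.54). In CD4 T-like cells it was at 2935 and 4618 CPM (1.57, 1.54 to 1.61). Its ratio was between 1.42 and 2.25 in the 9 classes, and its interval lay above 1 in 9 of 9.

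mt-Nd1, mt-Nd2 and mt-Nd3 encode membrane-arm subunits of complex I. Over all kept cells mt-Nd1 was at 968 and 1476 CPM (1.52, 1.51 to 1.54), mt-Nd2 at 794 and 1180 CPM (1.49, 1.47 to 1.51) and mt-Nd3 at 231 and 356 CPM (1.54, 1.5 to 1.58). The same 3 genes were above 1 in each of the 9 classes, from 1.39 to 2.41, 1.33 to 2.11 and 1.44 to 2.93. mt-Nd4 was nearer to 1, at 1002 and 1223 CPM (1.22, 1.20 to 1.24). mt-Nd5, the largest membrane subunit, was at 268 and 288 CPM (1.07, 1.05 to 1.10), and its interval lay above 1 in 4 of 9 classes.

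mt-Cytb, the only mitochondrially encoded subunit of complex III, was at 1927 and 2680 CPM over all kept cells (1.39, 1.38 to 1.40). In complex IV, mt-Co1, which holds the oxygen-reducing centre, was at 3837 and 4399 CPM (1.15, 1.14 to 1.15), and mt-Co2, which receives electrons from cytochrome c, at 3386 and 4231 CPM (a log2 ratio of 0.32). Within this complex mt-Co3 was the highest of the 3 ratios. mt-Atp6, part of the proton channel of ATP synthase, was at 3901 and 5096 CPM (1.31, 1.30 to 1.31).

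mt-Atp8, the other mitochondrial subunit of ATP synthase, went the opposite way. It was at 95.5 and 73.6 CPM over all kept cells (0.771, 0.737 to 0.807), and its interval lay below 1 in 7 of 9 classes. mt-Nd4l, a small subunit of complex I, was at 175 and 148 CPM (0.850, 0.822 to 0.878), below 1 in the 7 lymphocyte classes and above 1 in macrophage-like (1.42) and neutrophil-like cells (1.64, but -0.017 on the log2 scale as a mean over cells). Both genes overlap a neighbour in the GENCODE annotation of GRCm38: mt-Atp8 (chrM:7766-7969, plus strand) shares its end with mt-Atp6 (chrM:7927-8607), and mt-Nd4l (chrM:9877-10173) with mt-Nd4 (chrM:10167-11544). Reads there can be assigned to either gene or to none, so the levels of these 2 short genes are uncertain. The counts also do not show that the genes of a pair lie on separate RNAs, so their unlike ratios need not be those of 2 molecules. mt-Nd6, encoded on the other strand (chrM:13552-14070), was sparse, at 745 and 1134 UMIs in all kept cells (1.15, 1.05 to 1.27).

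**Figure D3:**
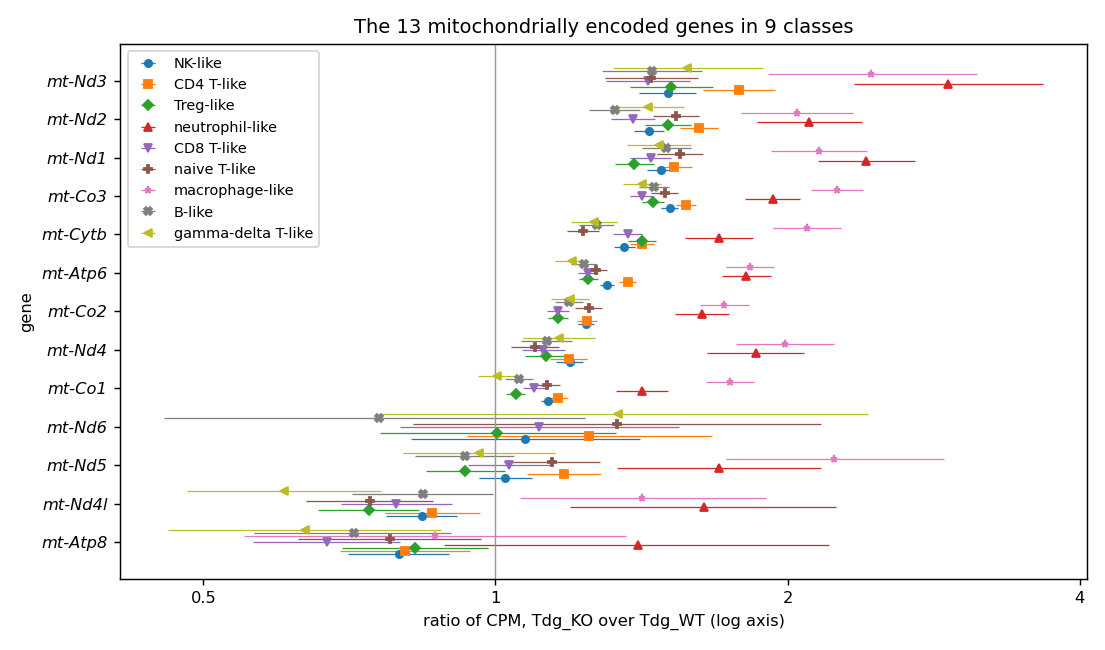
Ratio of CPM (Tdg_KO over Tdg_WT, log axis) of each mitochondrially encoded gene with its 95% counting interval in the 9 compared classes, genes ordered by their median; a gene with under 50 UMIs in a class is not drawn. mt-Nd3, mt-Nd2, mt-Nd1 and mt-Co3 lie to the right of 1 in all 9 classes, mt-Atp8 and mt-Nd4l to the left in the 7 lymphocyte classes, and neutrophil-like and macrophage-like cells lie farthest right for most genes.

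Counted gene by gene in NK-like cells, 6 of 13 mitochondrially encoded genes were at least 25% higher in Tdg_KO, against 13.9% of the 8868 genes measured, and mt-Atp8 was at least 20% lower, against 5.93%. The 3 nuclear genes of 81 that were higher by that fold (Ndufaf1, Ndufaf5 and Ndufaf6) and the 1 that was lower (Ndufaf4) all encode assembly factors, which are not part of the finished complex. In every compared class where they were measured, Ndufaf1, Ndufaf2, Ndufaf5, Ndufaf6 and Ndufaf7 had intervals that included 1. These 5 genes were sparse, at 1896 UMIs or fewer each over both libraries. No nuclear-encoded structural subunit was past that fold there. In CD4 T-like cells 6 of 13 mitochondrial genes and 0 of 79 nuclear genes were higher (18.9% of all genes measured), and 5 nuclear genes were lower, namely Ndufaf2, Ndufaf7, Ndufb8, Ndufc1 and Ndufv3 (7.73%). In Treg-like cells 5 mitochondrial genes and Ndufaf2 were higher (12.4%), and mt-Nd4l, Ndufaf1 and Ndufv3 were lower (10.2%). In CD8 T-like cells 5 mitochondrial genes, Ndufaf7 and Uqcrc2 were higher (17.4%), and mt-Atp8, mt-Nd4l and Ndufaf4 lower (8.12%).

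Naive T-like cells had 6 mitochondrial and 3 nuclear genes higher (Ndufb6, Ndufs8 and Uqcrc2, against 16.6%) and 2 of each lower, among them mt-Atp8, mt-Nd4l and Ndufb8 (11.8%). In B-like cells 5 mitochondrial and 6 nuclear genes were higher (16.7%), and mt-Atp8 and mt-Nd6 lower with 0 nuclear genes (11.8%). The interval of mt-Nd6 included 1 there. Gamma-delta T-like cells had 6 mitochondrial and 3 nuclear genes higher (Ndufaf4, Ndufs7 and Ndufv2, against 23.8%) and mt-Atp8, mt-Nd4l and 8 nuclear genes lower (11.1%). Of the higher nuclear genes named for naive T-like and gamma-delta T-like cells, Ndufb6, Ndufaf4 and Ndufs7 had intervals that included 1. mt-Co3, mt-Nd1, mt-Nd2 and mt-Nd3 were among the higher genes in each of these 7 classes. The share of nuclear genes past that fold in the higher direction was below the background in all 7. The background was not matched for UMIs per gene, on which counting error depends. This comparison therefore cannot set the nuclear genes apart from other genes of like abundance. Their medians were between -0.13 in gamma-delta T-like and 0.05 in B-like cells on the log2 scale, where the medians of all genes measured were 0.06 and 0.04. In B-like cells, 29.7% and 29.3% of barcodes carried genes of another lineage.

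**Figure D4:**
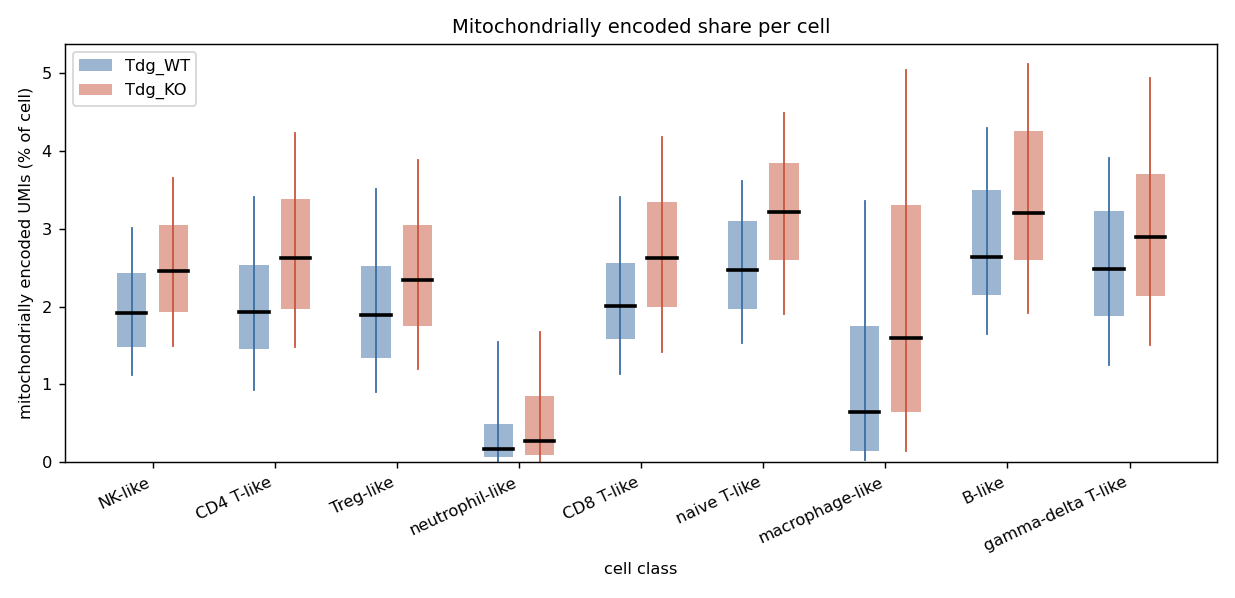
Mitochondrially encoded UMIs as a percentage of each cell's UMIs in the 9 compared classes; boxes span the 25th to 75th percentile of cells, black lines are medians and whiskers the 10th and 90th percentiles. Whole distributions lie higher in Tdg_KO in the lymphocyte classes (NK-like medians 1.92% and 2.46%), while neutrophil-like cells lie near 0 in both libraries.

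The higher mitochondrially encoded level was spread over the lymphocytes rather than held by few of them. The median cell of the NK-like class went from 1.92% in 836 cells to 2.46% in 979, and the 10th percentile from 1.12% to 1.49%. In CD4 T-like cells the median was 1.93% and 2.63% and the 10th percentile 0.924% and 1.49%. After the cells with at least 1000 UMIs were thinned to 1000 and the rest left out, the medians were 1.9% and 2.5% in NK-like cells. In CD4 T-like cells they were 2.0% and 2.6%. Barcodes removed for holding over 10% mitochondrial UMIs numbered 70 in Tdg_WT and 165 in Tdg_KO. The part of cell stress or dissociation in these shares was not tested.

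Macrophage-like cells showed the largest ratio of the 16 classes. Their mitochondrially encoded sum was 10722 and 20543 CPM (1.92, 1.87 to 1.96), while the nuclear sum was 30396 and 29768 CPM. Of 12 mitochondrial genes measured, 11 were at least 25% higher, against 30.2% of the 3227 genes measured in this class. Of 74 nuclear genes 5 were, among them Atp5a1, Ndufa4, Ndufa9 and Ndufb2. The interval of Ndufa9 included 1. Ndufb2 had a log2 ratio of -0.089 with cells thinned to 1000 UMIs, a value that rests on fewer UMIs and is given without an interval. In the other direction 0 of 12 and 1 of 74 (Ndufa6) were at least 20% lower (13.5%). mt-Nd3 was at 107 and 261 CPM (2.44, 1.91 to 3.14), mt-Co3 at 1695 and 3812 CPM (2.25, 2.12 to 2.39) and mt-Nd5 at 101 and 225 CPM (2.23, 1.73 to 2.90). mt-Atp8, at 49.3 and 42.7 CPM (0.866, 0.551 to 1.36), was the exception.

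The class was made up differently in the 2 libraries. A cluster led by Apoe and the complement genes C1qc and C1qb held 74 cells of Tdg_WT and 182 of Tdg_KO, and a cluster led by Arg1, Mt2 and Mt1 held 120 and 89. In the complement cluster the mitochondrially encoded sum was 12596 and 24024 CPM (1.91, 1.84 to 1.98), and in the Arg1 cluster 9840 and 12712 CPM (1.29, 1.24 to 1.35). A small cluster, led by Ccl8 and Ms4a7, held only 13 and 10 cells, at 8991 and 23919 CPM (2.66, 2.30 to 3.08). With the clusters weighted alike in both libraries, the class ratio was 1.71. Per cell, the median share was 0.645% in 207 cells and 1.60% in 281, and cells over 5% numbered 6 and 30. Summed phagocyte marker genes were at 39919 and 52529 CPM in this class, ribosomal protein genes held 24.8% and 21.5% of its UMIs, and the median depth was 3600 and 2943 UMIs per cell. The part of these in the ratio was not tested.

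Neutrophil-like cells, short-lived phagocytes with few mitochondria, had the mitochondrially encoded ratio that varied most with the processing among the 9 classes. Their mitochondrially encoded sum was 7456 and 13092 CPM (1.76, 1.71 to 1.80) in 686 and 240 cells, and 12 of 12 genes measured were at least 25% higher, against 38.2% of the 4699 genes measured. As means over cells mt-Co1 and mt-Nd4l had log2 ratios of -0.066 and -0.017, and with cells thinned to 1000 UMIs mt-Co1 was at -0.067. Thinning left out cells with fewer UMIs than that, so 498 of 686 and 167 of 240 cells remained. Of the 2 clusters in this class, that led by S100a9 and S100a8 had a mitochondrially encoded ratio of 0.442 and that led by Slc7a11 and Tnf of 1.90. The ratio of the class was 1.16 as a mean over cells and 2.44 with no limit on mitochondrial UMIs. Only 49 and 18 cells held over 2% mitochondrial UMIs, and those cells carried 46.3% and 50.9% of the class's mitochondrially encoded UMIs. The median cell was at 0.168% and 0.271%. Summed T-cell marker genes were at 552 and 1123 CPM in this class and phagocyte marker genes at 55647 and 40435 CPM. T-cell and phagocyte genes occurred together in some of its barcodes, and 3.50% and 7.50% carried genes of 2 lineages. Without such barcodes the ratio was 1.44, and their further part was not tested.

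Nuclear genes were also higher in neutrophil-like cells of Tdg_KO, and 33 of 74 measured were at least 25% higher, close to the 38.2% of all genes, with 2 at least 20% lower (Cox8a and Ndufa7, against 15.6%). The summed nuclear level was 15864 and 17525 CPM (1.10, 1.08 to 1.13). Ndufa11, a membrane-arm subunit of complex I (chr17:56717767-56722141, plus strand), was at 60.3 and 114 CPM (1.89, 1.41 to 2.52), and Ndufb11, an X-linked subunit of the same arm, at 103 and 183 CPM (1.77, 1.41 to 2.22). Cox8a, which encodes a small subunit of complex IV (chr19:7215153-7217616, minus strand), went the other way, at 1704 and 1325 CPM (0.778, 0.725 to 0.834), and Ndufa7 was at 427 and 341 CPM (0.799, 0.694 to 0.919). With the 2 neutrophil-like clusters weighted alike in both libraries, the log2 ratios of Cox8a and Ndufa7 were 0.045 and 0.0076.

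The promoters of nuclear genes for the respiratory chain are a textbook case of shared control by the factors NRF1 and GABPA (an ETS-family factor also called NRF-2) and by YY1. Of the 84 nuclear genes, 70 matched a promoter in the RefSeq table of GRCm38.p6, each 250 bases before to 50 after the start. On either strand, the NRF1 letters, GCGCA and GCGC with any 1 base between them, occurred in 17 of 70 (24.3%, against 5.19% of 27025 genes), the ETS letters CCGGAAG in 17 (24.3%, against 9.93%) and the YY1 letters AANATGGCG in 11 (15.7%, against 2.76%). At least 1 of the 3 occurred in 39 of 70 (55.7%, against 15.9%), and these sets overlap. The windows below show the 100 bases upstream of the outermost annotated start for genes described here, 5′ to 3′ on the gene's strand, with the match in capitals. Ndufa11 is shown for its neutrophil ratio, Cox6a1 for its higher level in Treg-like and CD8 T-like cells, and Uqcrh and Atp5e as the abundant complex III and ATP synthase genes whose levels were close to even or lower. The first 2 hold the NRF1 letters and the last 2 the ETS letters read on the opposite strand. The window of Atp5h, close to even in NK-like cells, also holds the NRF1 letters and is not shown. Outside these windows, the promoters of Cox6a1 and Atp5h hold ETS letters as well. Whether the letters go with the direction of a gene was not tested. A match describes the sequence and is not a measured binding site.
Ndufa11 (chr17:56717662-56717761, plus strand): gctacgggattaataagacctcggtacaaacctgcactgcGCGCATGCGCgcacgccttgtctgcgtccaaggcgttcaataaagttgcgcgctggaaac
Cox6a1 (chr5:115348982-115349081, minus strand): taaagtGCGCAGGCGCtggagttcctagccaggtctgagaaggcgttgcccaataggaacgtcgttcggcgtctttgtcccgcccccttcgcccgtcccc
Uqcrh (chr4:116075072-116075171, minus strand): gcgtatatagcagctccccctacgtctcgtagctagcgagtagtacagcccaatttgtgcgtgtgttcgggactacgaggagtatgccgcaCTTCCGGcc
Atp5e (chr2:174464106-174464205, minus strand): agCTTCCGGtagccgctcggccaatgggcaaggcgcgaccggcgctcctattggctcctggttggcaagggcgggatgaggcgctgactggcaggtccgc

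The nuclear complex I genes differed in direction between lymphocyte classes. Their sum was lower in NK-like (0.955, 0.941 to 0.970), CD4 T-like (0.933, 0.915 to 0.951), Treg-like (0.943, 0.925 to 0.962) and gamma-delta T-like cells (0.905, 0.870 to 0.941). It was higher in B-like cells (1.04, 1.00 to 1.07), and the intervals of CD8 T-like and naive T-like cells included 1. Ndufv3, an accessory subunit of the NADH-oxidising tip, had its interval below 1 in 7 of 9 classes. CD4 T-like cells held 229 and 182 CPM (0.796, 0.718 to 0.881) and Treg-like cells 243 and 175 CPM (0.723, 0.651 to 0.802). Ndufa6, a subunit of the peripheral arm, stood in macrophage-like cells at 408 and 283 CPM (0.694, 0.591 to 0.815) and in gamma-delta T-like cells at 340 and 235 CPM (0.691, 0.579 to 0.825). Ndufc1 was at 113 and 85.5 CPM in CD4 T-like cells (0.758, 0.653 to 0.880). Ndufa13 and Ndufa2, among the 3 complex I genes with the most UMIs, were near even over all kept cells, at 1.02 (1.00 to 1.04) and 0.969 (0.946 to 0.992).

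A few complex I genes were higher. Ndufa9 was at 46.9 and 58.3 CPM in NK-like cells (1.24, 1.06 to 1.46). In B-like cells Ndufb2 was at 88.1 and 128 CPM (1.45, 1.15 to 1.83), and Ndufv1, which binds NADH, was at 64 UMIs in each library, 35.4 and 54.9 CPM (1.55, 1.08 to 2.22). In gamma-delta T-like cells Ndufv2 was at 74.6 and 108 CPM (1.44, 1.04 to 2.02), and Ndufs7 at 82.6 and 108 CPM with an interval that includes 1 (1.30, 0.952 to 1.80). For macrophage-like cells Ndufb8 was at 273 and 338 CPM (1.24, 1.04 to 1.47). The assembly factor gene Ndufaf4 was at 37.8 and 26.1 CPM in CD8 T-like cells (0.689, 0.506 to 0.935).

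The sum of the nuclear complex III genes was between 0.895 in gamma-delta T-like and 1.13 in neutrophil-like cells of the 9 classes. In neutrophil-like cells 4 of 8 were at least 25% higher, namely Uqcrb, Uqcrc1, Uqcrc2 and Uqcrh, near the 38.2% of all genes measured there. Uqcrc1 was at 60 and 55 UMIs (1.84) and Uqcrc2 at 77 and 61 UMIs (1.59, 1.12 to 2.25) in this class. Uqcrh, the hinge protein that sits at cytochrome c1, was at 829 and 781 CPM in NK-like cells (0.943, 0.906 to 0.981), and macrophage-like cells held 781 and 776 CPM of it (0.994, 0.894 to 1.10). Uqcrq was at 277 and 254 CPM in NK-like cells (0.915, 0.854 to 0.981), with the interval below 1 in 5 of 9 classes, and Uqcrb at 249 and 271 CPM (1.09, 1.01 to 1.17). Uqcrc2, a core protein, was higher in CD8 T-like cells, at 90.3 and 114 CPM (1.26, 1.07 to 1.5). Its log2 ratio there was -0.16 with cells thinned to 1000 UMIs, a value that rests on fewer UMIs and is given without an interval.

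In complex IV, the short subunit gene Cox7c (chr13:86044816-86046904, minus strand) was lower in Tdg_KO in 7 of 9 classes by its interval. It was at 815 and 710 CPM in NK-like cells (0.871, 0.836 to 0.907) and at 835 and 711 CPM in Treg-like cells (0.852, 0.808 to 0.899). Macrophage-like cells held 1143 and 960 CPM (0.840, 0.768 to 0.920). Neutrophil-like cells were opposite, at 342 and 435 CPM (1.27, 1.11 to 1.45). Cox8a was also lower in NK-like cells, at 1192 and 1064 CPM (0.893, 0.864 to 0.924). Cox6c was at 746 and 647 CPM in NK-like cells (0.867, 0.831 to 0.905) and at 829 and 616 CPM in gamma-delta T-like cells (0.743, 0.665 to 0.830). Cox4i1, a regulatory subunit, was even over all kept cells, at 798 and 801 CPM (1.00, 0.989 to 1.02).

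Cox7a2l, which helps join complexes III and IV into supercomplexes, lay mostly above 1. It was at 306 and 373 CPM in Treg-like cells (1.22, 1.12 to 1.33), at 558 and 648 CPM in naive T-like cells (1.16, 1.06 to 1.27) and at 380 and 412 CPM in CD4 T-like cells (1.08, 1.01 to 1.16). Its interval lay above 1 in 5 of 9 classes and below 1 in 0. Of its relative Cox7a2, macrophage-like cells held 668 and 542 CPM (0.812, 0.720 to 0.916). Ndufa4, named for complex I but since assigned to complex IV, was at 295 and 333 CPM in CD4 T-like cells (1.13, 1.04 to 1.22). Macrophage-like cells held little of it, 123 and 163 CPM, as did neutrophil-like cells, 119 and 192 CPM, where the other 7 compared classes held from 252 to 512 CPM.

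A tissue-specific isoform of complex IV was found almost wholly in 1 class. Cox6a2, the isoform known from heart and skeletal muscle (chr7:128205435-128206387, minus strand), was at 1178 and 939 CPM in plasmacytoid dendritic-like cells (431 and 824 UMIs, a ratio of 0.797 with an interval of 0.709 to 0.898). Plasmacytoid dendritic-like cells are the interferon-producing class, and 25.6% of their barcodes here carried genes of both T cells and phagocytes. Of the 25 and 53 cells here, 24 and 50 held at least 1 UMI of Cox6a2, and the gene was not used to group or name them. In NK-like cells it was at 2.95 and 4.55 CPM, and those 16 and 31 UMIs lay in 8 and 7 cells. B-like cells had 0 UMIs in both libraries, which allows up to 1.66 and 2.57 CPM at 3 counts per library. Type 1 dendritic-like cells also had 0 UMIs, which allows up to 8.85 and 3.52 CPM. The plasmacytoid dendritic-like class thus stood far above all 15 other classes in both libraries.

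**Figure D5:**
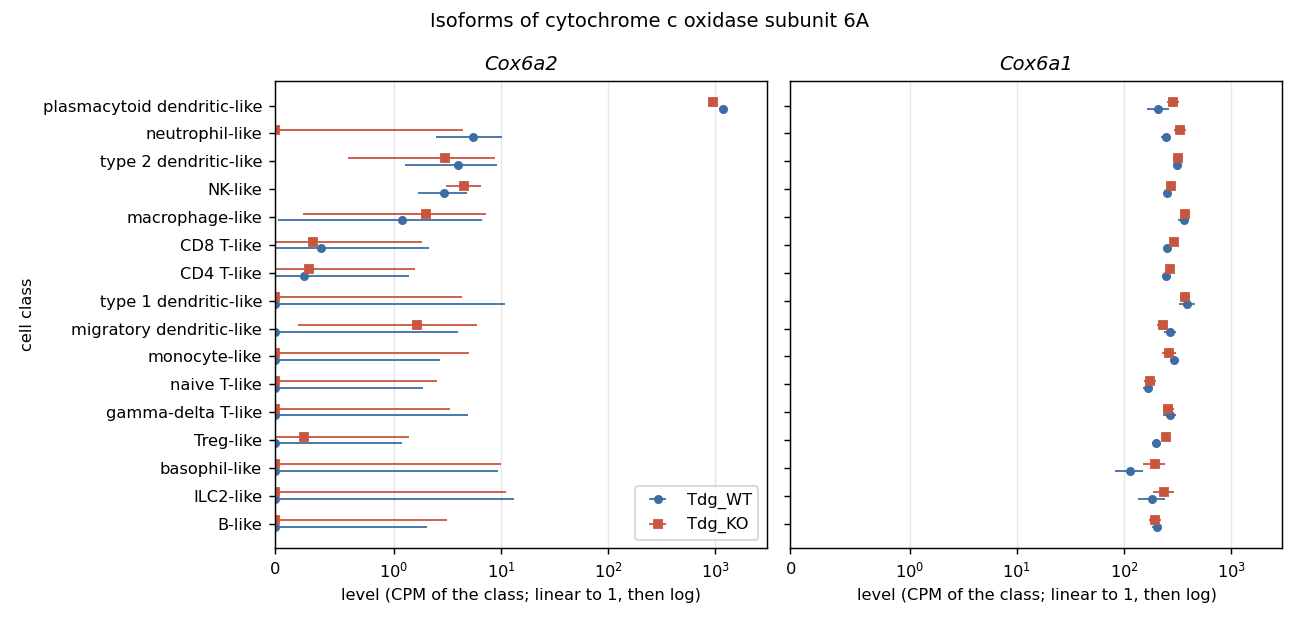
Level of Cox6a2 (left) and Cox6a1 (right) in CPM of each named class, on an axis linear to 1 and logarithmic beyond; circles are Tdg_WT, squares Tdg_KO, and bars exact Poisson 95% intervals, so that a class with 0 UMIs has a bar from 0. Cox6a2 is near 1000 CPM in plasmacytoid dendritic-like cells and under 10 CPM in the other classes, whereas Cox6a1 is present in all 16.

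Cox6a1, the general isoform, was present in every class. It was at 198 and 244 CPM in Treg-like cells (1.23, 1.11 to 1.37) and at 251 and 295 CPM in CD8 T-like cells (1.17, 1.06 to 1.30), with the interval above 1 in 4 of 9 classes and below 1 in 0. The muscle isoform Cox7a1 and the germ-cell isoform Cox6b2 were rare, at 118 and 114 UMIs and at 171 and 181 UMIs over all kept cells. Cox4i2, an isoform known from lung and low oxygen, was below the member minimum. Macrophage-like cells held 10 and 2 UMIs of it (0.165, 0.0176 to 0.775). Cox8b and Ndufa4l2 had 4 UMIs or fewer per library among kept cells, and Cox8c and Cox7b2 had 0 in all barcodes.

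In ATP synthase the genes of the alpha and beta subunits, which form the catalytic head, had intervals above 1 in 3 and 4 of 9 classes and below 1 in 0, while several small subunits lay below 1. Atp5b, the beta subunit, was at 381 and 427 CPM over all kept cells (1.12, 1.10 to 1.14). Atp5a1, the alpha subunit, stood in macrophage-like cells at 256 and 365 CPM (1.43, 1.20 to 1.70). Atp5e, the epsilon subunit of the central stalk, was at 1012 and 887 CPM in NK-like cells (0.876, 0.845 to 0.909), with the interval below 1 in 5 of 9 classes, and at 785 and 724 CPM in B-like cells with an interval reaching 1.00 (0.921, 0.845 to 1.00). Atp5l was at 671 and 608 CPM in NK-like cells (0.905, 0.866 to 0.947), and Atp5h at 664 and 660 CPM (0.995, 0.952 to 1.04). Atp5d was at 351 and 303 CPM in B-like cells (0.864, 0.757 to 0.986). Atp5j, a subunit of the peripheral stalk, was at 188 and 233 CPM in naive T-like cells (1.24, 1.07 to 1.44).

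Atp5g1, Atp5g2 and Atp5g3 encode the same ring subunit with different import signals. Over all kept cells Atp5g1 had a ratio of 1.03 (1.01 to 1.06), Atp5g2 of 0.952 (0.935 to 0.970) and Atp5g3 of 1.02 (0.996 to 1.05). In neutrophil-like cells the 3 were at 151 and 212 CPM (1.40), 214 and 281 CPM (1.31) and 105 and 169 CPM (1.61, 1.28 to 2.03). As a mean over cells, Atp5g3 had a log2 ratio of -0.051. In macrophage-like cells Atp5g1 was at 568 and 530 CPM, above its level in the other 8 compared classes.

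Genes around the chain were read from lists chosen with the member list. Complex II (Sdha to Sdhd), the only complex with no mitochondrially encoded subunit, had medians between -0.06 and 0.06 on the log2 scale in the 9 classes. Of the 13 tricarboxylic acid cycle genes, 6 of 12 measured were at least 25% higher and 0 at least 20% lower in macrophage-like cells (median 0.31, against 0.10 for all genes, of which 30.2% were higher and 13.5% lower), among them Ogdh at 36.1 and 61.6 CPM (1.71, 1.09 to 2.73) and Fh1 at 42.1 and 66.5 CPM (1.58, 1.04 to 2.45). Intervals lay above 1 for 3 of these 12 in macrophage-like cells and below 1 for 0. In neutrophil-like cells 4 of 9 cycle genes measured were higher and 1 lower (median 0.26), near the 38.2% and 15.6% of all genes measured there. In NK-like cells 0 of 13 passed that fold in either direction. Of 37 further assembly factors, 16 were measured in macrophage-like cells, with 6 lower and 2 higher (13.5% and 30.2% of all genes measured). Among those 16, only 2 intervals lay below 1 and 1 above. Higd1a, a low-oxygen-induced partner of complexes III and IV, was at 444 and 181 CPM there (0.407, 0.339 to 0.488), and neutrophil-like cells held 234 and 146 CPM (0.627, 0.507 to 0.771).

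The 18 genes of mitochondrial transcription and RNA handling in the list were sparse. In NK-like cells 5 of 11 measured were higher and 1 lower by that fold (13.9% and 5.93% of all genes measured). In CD8 T-like cells 1 of 11 was higher and 3 lower (17.4% and 8.12%). By their intervals, 3 lay above 1 and 0 below in NK-like cells, and 0 above and 2 below in CD8 T-like cells. In Treg-like cells Lrpprc, which stabilises mitochondrial messenger RNAs, was at 20 and 54 UMIs (2.09, 1.23 to 3.68). Polg, the mitochondrial DNA polymerase gene, was at 75 and 112 UMIs in CD4 T-like cells (1.70, 1.26 to 2.31). In macrophage-like cells, where the mitochondrially encoded ratio was highest, 2 of the 18 reached 50 UMIs, and neither passed that fold. The 9 regulators of mitochondrial biogenesis, among them Nrf1, Gabpa and Esrra, had medians between -0.09 and 0.15 in the 8 classes where more than 1 was measured. Of 15 mitochondrial import genes, 2 were lower and 0 higher in CD4 T-like cells, where 7.73% and 18.9% of all genes were. Their median was -0.15, against 0.08 for all genes, and among the lower was Timm10 with 63 and 29 UMIs (0.525, 0.326 to 0.827).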

How the data were processed

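Single-cell RNA was read from 1 10x 3′ library per genotype. The authors deposited UMI counts per gene and called barcode, made with Cell Ranger 6.0.1 per the file headers. The submitters' processing notes also name Seurat and the build mm10, with no role, and the annotation is not given in the sources used here. Barcodes needed 200 genes and no more than 10% of UMIs from mitochondrial genes, and no doublet caller was run. Counts were scaled to 10000 per cell, and 2000 variable genes, 30 principal components, 15 neighbours and Leiden resolution 1 were used (scanpy 1.11.5, leidenalg 0.10.2), with the members, ribosomal protein, haemoglobin, sex-linked and receptor genes left out. Clusters were named from marker lists. A cluster stayed unnamed where it lacked 3 markers detected in 10% of cells, had no marker of its own among its 10 leading genes, or had 50% or more barcodes of 2 lineages or 25% of 2 T-cell subsets. The second of these limits was set after the data were seen. Clusters also stayed unnamed where the marker score was low or markers of another class led. The same held where proliferation genes, interferon genes, or mast cell and keratin genes led, or where UMIs were low with no own leading marker. Within a library, the UMIs of each class were added up and scaled to 1000000 (CPM). A gene was measured in a class with at least 50 UMIs over both libraries.

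Ratios carry exact conditional Poisson 95% intervals (scipy 1.17.1), tested on simulated data. UMIs of a class can also hold free RNA. With 1 library per genotype there is no test, and n is 1 throughout. Calls are a CPM at least 25% higher, or lower by the same fold (20% lower), and counts are set beside those over all genes measured, with no matching for UMIs per gene. Named genes are all mitochondrially encoded members, the 3 with the most UMIs per complex, isoforms of 1 subunit, the 2 highest and 2 lowest nuclear members per class by the interval bound nearest to 1, and genes of the other lists at least 1.5-fold different, at most 3 per list. Others were named after their values were seen. Some genes that this rule names are not reported here. The members and lists were chosen with earlier results of these data known. Gene positions come from the GENCODE annotation of GRCm38. Alternatives were a mitochondrial limit of 5% or none, other denominators, means over cells, thinning, removal of 2-lineage barcodes, Leiden resolution 0.5, a minimum of 10 UMIs and naming of mixed clusters, and, added after the data were seen, naming of clusters with no leading marker and equal cluster weights.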

Additional observations from a re-analysis of the deposited data

Results flagged for a closer look

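In 3 cases, clusters of the same class lay on opposite sides of 1, each with its counting interval excluding 1. The difference between clusters was not tested, since each has 1 library per genotype. Among neutrophil-like cells, the mitochondrially encoded sum had a ratio of 1.90 in the cluster led by Slc7a11, Tnf and Il23a (393 and 156 cells, 7417 and 14104 CPM) and 0.442 in the cluster led by S100a9, S100a8 and Cstdc4 (293 and 84 cells, 7617 and 3367 CPM). In the second cluster 12 cells of Tdg_WT held over 5% mitochondrial UMIs and carried 39.1% of its mitochondrially encoded UMIs, against 1 cell in Tdg_KO, and the median cells were at 0.130% and 0.153%. Its nuclear sum was 20822 and 33011 CPM (1.59). Among CD8 T-like cells, the nuclear sum had a ratio of 1.03 in the cluster led by Nrgn, Cd8a and C2cd4b and 0.955 in the cluster led by Cd8b1, Cd8a and Gzmk. Among macrophage-like cells, the nuclear ratio was 1.03 in the cluster led by Arg1, Mt2 and Mt1 and 0.938 in the cluster led by Apoe, C1qc and C1qb.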

How the results depend on the processing

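The summed mitochondrially encoded ratio stayed above 1 in the 9 compared classes under all alternatives run, from 1.13 in gamma-delta T-like to 2.44 in neutrophil-like cells. No nuclear median moved beyond the median of its genes' own counting bounds. That range is as wide as the interval of 1 typical gene, so it does not measure how stable a median over many genes is. Under the alternatives the nuclear median log2 ratio ran from 0.13 to 0.51 in neutrophil-like and from -0.14 to 0.012 in macrophage-like cells. In CD8 T-like cells it ran from -0.018 to 0.015. The mitochondrially encoded median log2 ratio moved with the limit at 5% to 0.28 in NK-like and 0.78 in macrophage-like cells, and with no limit to 1.32 in neutrophil-like cells. Thinning gave 0.38 in CD8 T-like, 0.13 in Treg-like and 0.52 in neutrophil-like cells. It left out cells under 1000 UMIs, so 498 of 686 and 167 of 240 neutrophil-like cells remained. Means over cells gave 0.27 in CD4 T-like, 0.16 in Treg-like and 0.19 in neutrophil-like cells. Naming mixed clusters gave 0.62 in macrophage-like cells. Without 2-lineage barcodes it was 0.19 in B-like and 0.62 in neutrophil-like cells, and with equal cluster weights 0.42 in neutrophil-like cells. Single genes changed sign in neutrophil-like cells: Atp5g3 (-0.051), mt-Co1 (-0.066) and mt-Nd4l (-0.017) as means over cells, mt-Co1 when thinned (-0.067), and Cox8a (0.045) and Ndufa7 (0.0076) with equal cluster weights. Thinning also changed the sign of Uqcrc2 in CD8 T-like (-0.16) and Ndufb2 in macrophage-like cells (-0.089). Of the named genes' values, thinning moved 167 beyond their counting interval, reversed 3 and left 224, whereas each other alternative moved 30 or fewer. That interval comes from the full counts, and thinned values rest on fewer UMIs. Sampling alone can therefore place a thinned value outside it, so these counts do not measure a dependence on depth. Genes left with under 50 UMIs were not counted. The cause of the moves was not tested. No paired analysis was possible because each genotype has 1 library. Depth limits neutrophil-like cells most, with medians of 1803 and 2247 UMIs per cell.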
